A study of Mus musculus with 4 samples.

Results

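Gene deserts are long stretches of chromosome without protein-coding genes. A YAP peak was taken as a desert site when its summit, the highest point of the peak, lay more than 100 kb from the span of every protein-coding gene. Of 36576 peaks in wild type (WT) epidermis, 2488 met this rule (6.80%, 95% exact interval 6.55 to 7.07), as did 1049 of 14879 peaks in the Bmal1 knockout (KO) (7.05%, 6.64 to 7.47). These intervals, and all others below, cover counting error only. The rule used position alone, not the height of a peak.

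The study mapped YAP by chromatin immunoprecipitation and sequencing in epidermal cells of adult mice aged 18 to 25 weeks, killed at Zeitgeber time 4, that is 4 h after lights on. The mice were wild type for Bmal1 or lacked it. The labels call the second genotype both Bmal1 KO and Bmal1cKO. The cells in which it was deleted were not given in the sources used here. Cells of both genotypes were fixed with a Gold fixative and then with 1% formaldehyde, and chromatin was taken with an anti-YAP antibody. There are 4 samples, a YAP precipitate and an input for each genotype, and the 2 precipitates each have 1 pooled peak list. KO below means the library so labelled. A peak list holds no expression values, so neither the loss of Bmal1 nor the tissue label was checked against marker genes.

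YAP is a transcriptional co-activator held back by the Hippo kinases. It does not bind DNA itself but is carried there by TEAD proteins, often beside AP-1, and most of its known sites are enhancers distant from promoters. In epidermis YAP is known for its part in the proliferation of basal keratinocytes and in wound repair. Deserts often hold long-range enhancers of developmental genes at their edges, and BMAL1, with its partner CLOCK, drives the transcription of circadian clock genes.

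The sequence of 24 desert sites could be read in part, because their WT summits fell in the promoter of a long non-coding RNA (lncRNA), here 250 bases before to 50 after a gene start. Promoters of 3 of them are shown, 5′ to 3′ from RefSeq (GRCm38.p6): those of Gm13003 and Gm35551, the pair with most WT reads, and that of Gm30257, which holds both motifs searched. Capitals mark TEAD motifs (GGAATG or its reverse complement CATTCC) and AP-1 motifs (TGANTCA on either strand).
Gm13003: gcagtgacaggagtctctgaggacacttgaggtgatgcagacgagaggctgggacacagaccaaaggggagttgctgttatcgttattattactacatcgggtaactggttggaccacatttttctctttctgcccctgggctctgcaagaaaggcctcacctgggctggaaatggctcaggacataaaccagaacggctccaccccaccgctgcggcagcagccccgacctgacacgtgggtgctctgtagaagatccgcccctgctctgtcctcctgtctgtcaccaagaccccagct
Gm35551: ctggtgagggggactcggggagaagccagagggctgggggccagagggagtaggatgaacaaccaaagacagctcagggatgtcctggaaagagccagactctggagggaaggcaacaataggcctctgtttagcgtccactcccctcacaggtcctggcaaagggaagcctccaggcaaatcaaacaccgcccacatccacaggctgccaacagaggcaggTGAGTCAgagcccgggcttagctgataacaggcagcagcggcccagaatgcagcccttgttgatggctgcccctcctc
Gm30257: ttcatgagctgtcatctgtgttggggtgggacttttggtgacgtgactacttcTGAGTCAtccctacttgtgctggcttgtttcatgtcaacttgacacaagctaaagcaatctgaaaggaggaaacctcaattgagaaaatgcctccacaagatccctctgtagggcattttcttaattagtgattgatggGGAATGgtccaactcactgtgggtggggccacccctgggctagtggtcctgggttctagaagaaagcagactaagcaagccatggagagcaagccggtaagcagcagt

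The promoter of Gm13003 (chr4:137165017-137165316, minus strand) lies in the desert between Zbtb40 and Wnt4. Its peak had 183 reads at the summit in WT and 119 in KO. The promoter of Gm35551 (chr17:84026272-84026571, minus strand), between Haao and Zfp36l2, had 147 reads in WT and 73 in KO. That of Gm30257 (chr2:72733571-72733870, plus strand), between Cdca7 and Sp3, had 116 in WT and 56 in KO. All 3 were called in both lists and were lower in KO. Of the 24 desert promoters with a WT summit, 7 held a TEAD motif (29.2%), against 16.9% of the 2068 promoters in deserts and 14.6% of all promoters. An AP-1 motif was in 6 of the 24 (25.0%), against 10.3% of desert promoters and 7.85% of all promoters. With only 24 promoters these counts are small, no interval was computed for them, and the shares were not tested against each other. A match describes these letters only, and the sites elsewhere in the deserts were not searched.

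The reads at a summit were recovered from the deposited fold and −log10 p of each peak and share 1 scale in both lists, in which evenly spread reads give 9.63 per window. Across all peaks they ran from 28 to 290 in WT and from 29 to 223 in KO. Desert sites had a median of 60 reads in WT (interquartile range 48 to 85) and 52 in KO (44 to 67). WT peaks inside gene spans had the same median, 60. Desert peaks were 486 bp wide at the median in WT and 433 bp in KO, against 514 and 444 bp inside gene spans. Desert sites thus had the median height of genic ones and a lower median width.

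Deserts make up 712.8 Mb, or 27.7% of the chromosome length considered, and so hold few sites for their size. WT sites were found at 3.49 per Mb of desert, against 19.0 per Mb inside gene spans, 29.8 within 10 kb of one and 12.3 between 10 and 100 kb. In KO the desert density was 1.47 per Mb, against 7.36 inside gene spans. Both lists thinned out in the same order with distance, and WT peaks outnumbered KO peaks 2.37 to 1 in deserts and 2.58 to 1 inside gene spans.

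**Figure D1:**
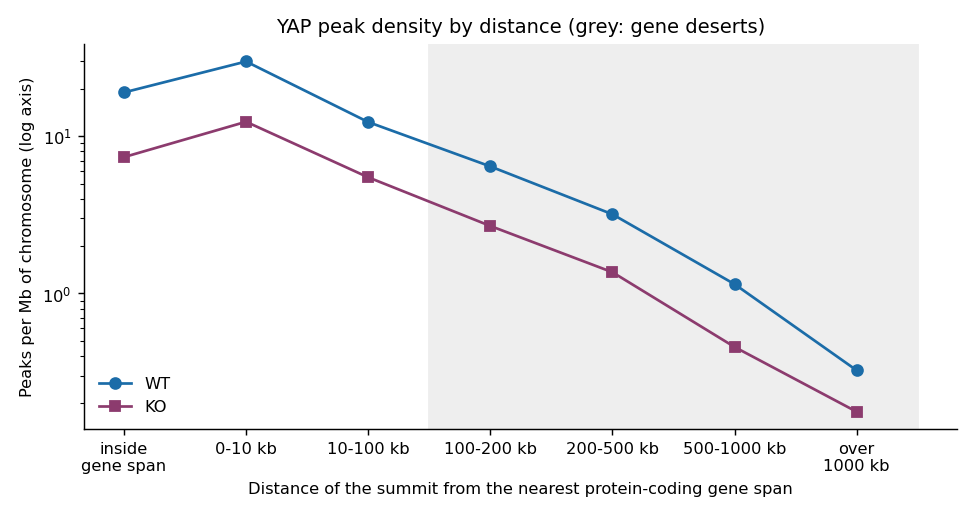
Peaks per Mb (log axis) by distance of the summit from the nearest protein-coding gene span, for the WT and KO lists, with the desert classes shaded grey. Density was highest within 10 kb (29.8 WT peaks per Mb) and fell through every further class to 0.325 per Mb beyond 1000 kb.

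The fall went on inside the deserts. WT density was 6.42 per Mb between 100 and 200 kb from a gene, 3.19 between 200 and 500 kb, 1.15 between 500 and 1000 kb and 0.325 farther out. The median desert site lay 184 kb from its nearest gene in both lists (interquartile range 134 to 289 kb in WT). There were 190 WT sites beyond 500 kb and 22 beyond 1 Mb. The limit of 100 kb marked no step: between 100 and 120 kb there were 386 WT peaks (6.82 per Mb, median 59 reads, 39.6% also called in KO), and just outside the rule, between 80 and 100 kb, 529 (7.88 per Mb, median 63 reads, 42.3% also called in KO).

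The comparison of genotypes asks which WT sites were also called without Bmal1. A WT site counted as kept when a KO peak covered at least 1 bp of it. Of the 2488 desert sites, 1027 were kept (41.3%, 39.3 to 43.2), where 39.1% of all WT peaks were. The share depends on the lengths of the lists, and was 79.4% with the WT list reduced by score to as many peaks as KO. The other WT peaks were kept at 39.0% (38.5 to 39.5), and at 39.3% when weighted to the read counts of the desert sites. Inside gene spans, within 10 kb and from 10 to 100 kb, the weighted shares were 39.3%, 38.5% and 40.1%. Each genotype has 1 list and no replicate spread, so these shares were not tested against each other. The lower end of the desert interval, 39.33, lay just above the weighted value of the other peaks, 39.26. The weighted shares inside gene spans (39.27) and within 10 kb (38.49) lay below the interval too, and that from 10 to 100 kb lay inside it. The interval counts the sites as independent.

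Whether a site was kept went with its height. Among WT desert sites of 40 to 49 reads, 5.95% were kept (30 of 504), rising to 39.3% at 60 to 69 reads (121 of 308) and 89.1% at 90 to 99 (122 of 137). Peaks outside deserts gave 3.67%, 31.3% and 88.6% in the same ranges. At 60 to 69 reads the intervals did not meet (33.8 to 45.0 in deserts, 30.0 to 32.7 elsewhere), and in the other 9 of 10 read ranges they did. All 239 desert sites of at least 120 reads were kept, where 99.8% of all WT peaks of that height were. The 1461 WT-only desert sites had a median of 51 reads and none exceeded 117, while kept sites had a median of 91.

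**Figure D2:**
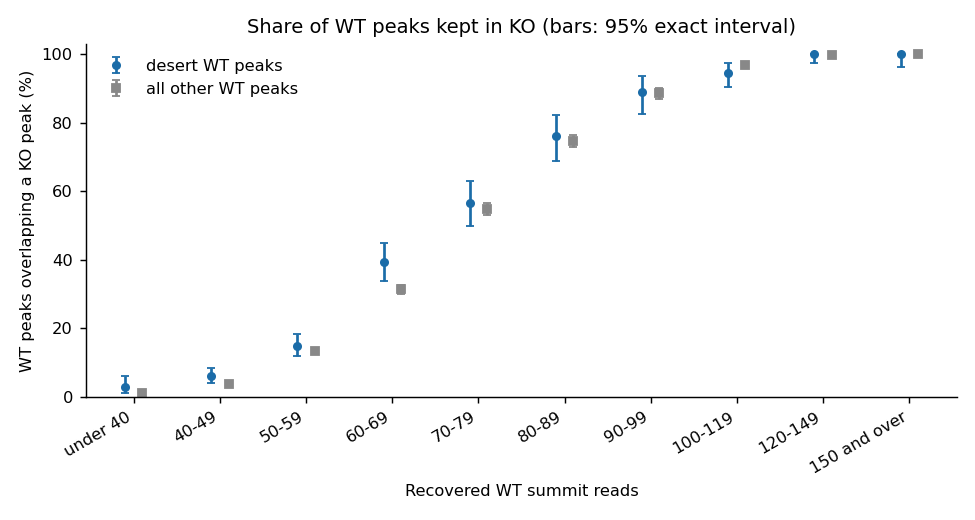
Share of WT peaks that overlap a KO peak, by recovered WT summit reads, for desert peaks and all other WT peaks, with exact 95% intervals. Both series climb from under 3% below 40 reads to 100% from 150 reads, and their intervals overlap in every range but that of 60 to 69 reads.

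Of the KO list's 1049 desert peaks, 1040 overlapped a WT peak (99.1%, 98.4 to 99.6), where 99.0% of all KO peaks did. The other 9 were KO-only, as were 1.03% of all KO peaks. This count depends on the overlap asked for: 47 had no WT summit within 200 bp, 133 no WT peak in 50% reciprocal overlap, and 205 no overlap with a WT list reduced to as many peaks as KO. The highest lay between Tbc1d1 and Gm38457 (chr5:64667033-64667485) with 50 KO reads, followed by one between Insc and Sox6 (chr7:115173654-115173953) with 45. Between Usp25 and Cxadr (chr16:77503595-77503912) and between Haao and Zfp36l2 (chr17:84013019-84013368) there were 41 reads each. These 4 stood below the median of the KO desert sites, 52 reads, and had their nearest WT summit 1.15 to 33.0 kb away.

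At the 239 strong desert sites, those of at least 120 WT reads, the median was 144 reads in WT and 83 in KO. Above the even background of 9.63 reads, the median KO to WT ratio was 0.536, or −0.90 on the log2 scale (interquartile range −1.07 to −0.75 over sites, interval of the median −0.94 to −0.87). The 3447 other kept peaks of that height had a median of −0.88, and −0.89 when weighted to the reads of the desert sites. KO was the lower of the lists at all 239, but the sites were picked for their height in WT, and the same held at 3446 of the 3447 others. At 77 of the 239 (32.2%) the KO reads above background were at most 0.5 of WT, where 30.7% of all strong kept peaks were. The interval of the desert median covered both values of the other peaks.

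**Figure D3:**
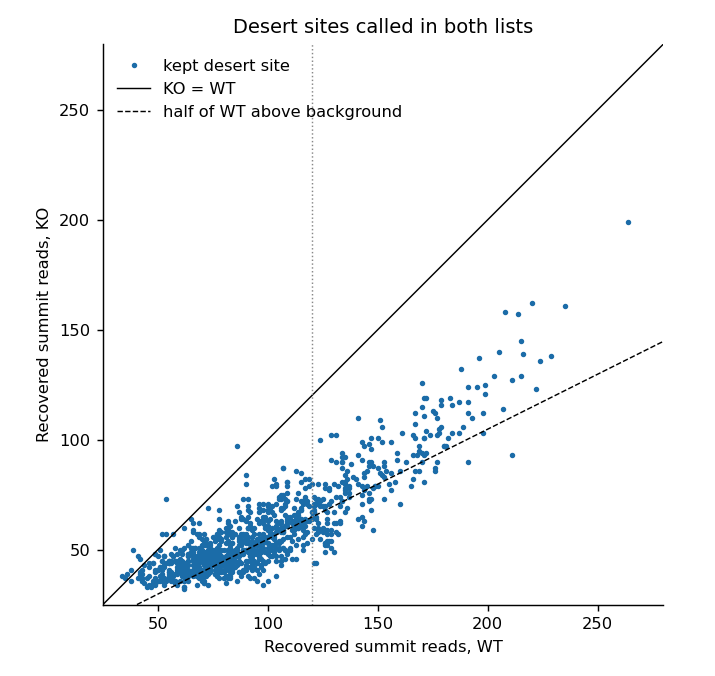
Recovered KO summit reads against WT summit reads for each of the 1027 kept desert sites, with the line of equal reads (solid), the line where KO has 0.5 of the WT reads above background (dashed) and the limit of 120 WT reads (dotted). Right of the dotted line every point lies below the line of equal reads, and the highest site, with 264 reads in WT and 199 in KO, lies at the far right.

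The site with most WT reads lay between A1bg and Myc (chr15:61618682-61619756), 366 kb from Myc, the transcription factor of cell growth, with 264 reads in WT and 199 in KO. The next lay between Nebl, which encodes a nebulin-like protein, and H2al2a, a histone variant gene (chr2:17877311-17878825), with 235 and 161. Between Pfn2, an actin-binding profilin, and Tsc22d2 (chr3:57976407-57977282) there were 229 and 138. Each was called in both lists and was lower in KO. The site between Eci2 and Cdyl (chr13:35383036-35384161), a mitochondrial enzyme gene and a chromatin protein gene, had 224 and 136 reads. That between Klf6, a zinc-finger factor, and Pitrm1 (chr13:6192839-6194260) had 222 and 123. Between Tgfbr2, a receptor of TGF-beta, and Rbms3 (chr9:116313526-116315108) there were 220 and 162. The KO to WT log2 ratios of these 6 sites ran from −0.91 at Klf6-Pitrm1 to −0.43 at A1bg-Myc. A further 3 of the 10 highest lay beside Hes1, a Notch target (chr16:29910841-29911808, 216 and 139 reads), in the Klf4-Actl7b desert (chr4:56582046-56583232, 215 and 145) and beside Marcks (chr10:37449793-37450596, 214 and 157).

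The ratios of single strong sites ran from −1.71 to −0.34. The lowest was between Dsel and Cntnap5a (chr1:112103050-112103814), with 122 reads in WT and 44 in KO. It was followed by the site between Cd83 and Jarid2 (chr13:44234153-44234808), with 121 and 44, and by one 120 kb from Bmp2, a growth factor of the BMP family (chr2:133431822-133432760), with 130 and 49. The last of these was not kept when 50% reciprocal overlap was asked for. The highest ratios were at Ttll7-Adgrl2 (chr3:147163079-147163734), with 124 and 100 reads, at Rasa1-Cox7c (chr13:85430400-85431268), with 129 and 102, and at Med13l-Tbx3 (chr5:119156510-119157149), with 141 and 110. All 6 had 121 to 141 WT reads, close to the limit of 120.

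The 6 WT-only sites with most reads lay 114 to 803 kb from a gene. The site between Jag1, a Notch ligand, and Btbd3 (chr2:137455554-137456250) had 117 reads, and that between Ermard and Dll1, another Notch ligand (chr17:15223682-15224342), had 116. In the Celf2-Gata3 desert (chr2:9053668-9054142) there were 115 and in the Klf4-Actl7b desert (chr4:56156873-56157400) 114. The other 2 were at Klf14-Mkln1 (chr6:31077696-31078236, 110 reads) and Cntn3-Chl1 (chr6:103396804-103397303, 106 reads). None of the 6 had a KO peak. An uncalled site may still hold KO reads, which the list does not give.

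All 4 sites farthest from a gene lay between Slc10a2, a bile acid transporter gene, and Efnb2. The farthest, 1676 kb from Slc10a2 (chr8:6781051-6781594), had 55 WT reads and no KO peak. At 1674 kb (chr8:6778998-6779716) there were 107 reads in WT and 87 in KO, and at 1671 kb (chr8:6775771-6776120) 50 and no KO peak. The last of them, at 1552 kb (chr8:6657312-6657936), had 50 and 47. Of these 4 sites, 2 were thus called in both lists.

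The sites were gathered in a minority of deserts. Of 1537 deserts, each the stretch over 100 kb from a pair of neighbouring genes, 530 held a WT site (34.5%) and 354 a KO site. The 1007 deserts without a WT site made up 58.3% of all desert length. The 72 deserts with at least 10 WT sites held 1211 of them (48.7%) in 7.89% of the length, and the 12 with most held 394 (15.8%) in 2.71%. Length and number of sites went together only loosely over the 1537 deserts (Spearman rho 0.25, a description, since longer deserts offer more room). The nearest other WT peak, in a desert or not, lay 8.68 kb from a desert site at the median. For WT peaks inside gene spans it lay 5.54 kb away.

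The desert with most sites lay beside Klf4 on chr4 (55632476 to 56640004). Klf4 encodes a zinc-finger factor needed for the epidermal barrier, and Actl7b, on the far side, an actin-like protein of the testis. It held 58 WT sites, 30 of them kept, and 31 KO sites, at 57.6 WT sites per Mb. Its WT sites ran from 35 to 215 reads, with a median of 68.5. The highest lay 1050 kb from Klf4 and 157 kb from Actl7b, and 7 sites had at least 120 reads. Sites stood over the whole stretch, 24 nearer to Klf4 and 34 nearer to Actl7b.

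The second was the stretch from Celf2, an RNA-binding protein gene, to Gata3, a transcription factor of T cells and of the hair follicle (chr2:7496342-9757077). It held 51 WT sites, 19 of them kept, and 19 KO sites. All 51 were nearer to Gata3, and 10 of them fell within 50 kb, 1944 kb from Celf2. Its highest site (chr2:9486959-9488038) had 178 reads in WT and 105 in KO, 369 kb from Gata3. From their reads, 22.6 of its sites would have been kept at the rate of WT peaks outside deserts, against the 19 that were.

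The next 3 lay beside genes of cell signalling. From Slc4a3, an anion exchanger gene, to Epha4, an ephrin receptor (chr1:75659432-77267181), there were 48 WT sites, 18 kept, and 33 of the 48 were nearer to Epha4. The highest (chr1:77080728-77081491) had 191 reads in WT and 112 in KO. From Slc10a2 to Efnb2, an ephrin ligand (chr8:5205288-8517234), there were 32, 16 kept, with 25 nearer to Efnb2 and a highest site of 175 and 113 reads (chr8:7497960-7498774). From Zeb2, a repressor known from epithelial-mesenchymal transition, to Acvr2a, an activin receptor (chr2:45217443-48714108), there were 31, 11 kept. In this desert 29 of 31 sites were nearer to Acvr2a, and the highest (chr2:48089019-48089833) had 141 and 64 reads. In each of these 3 deserts most sites were nearer to the right-hand gene.

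**Figure D4:**
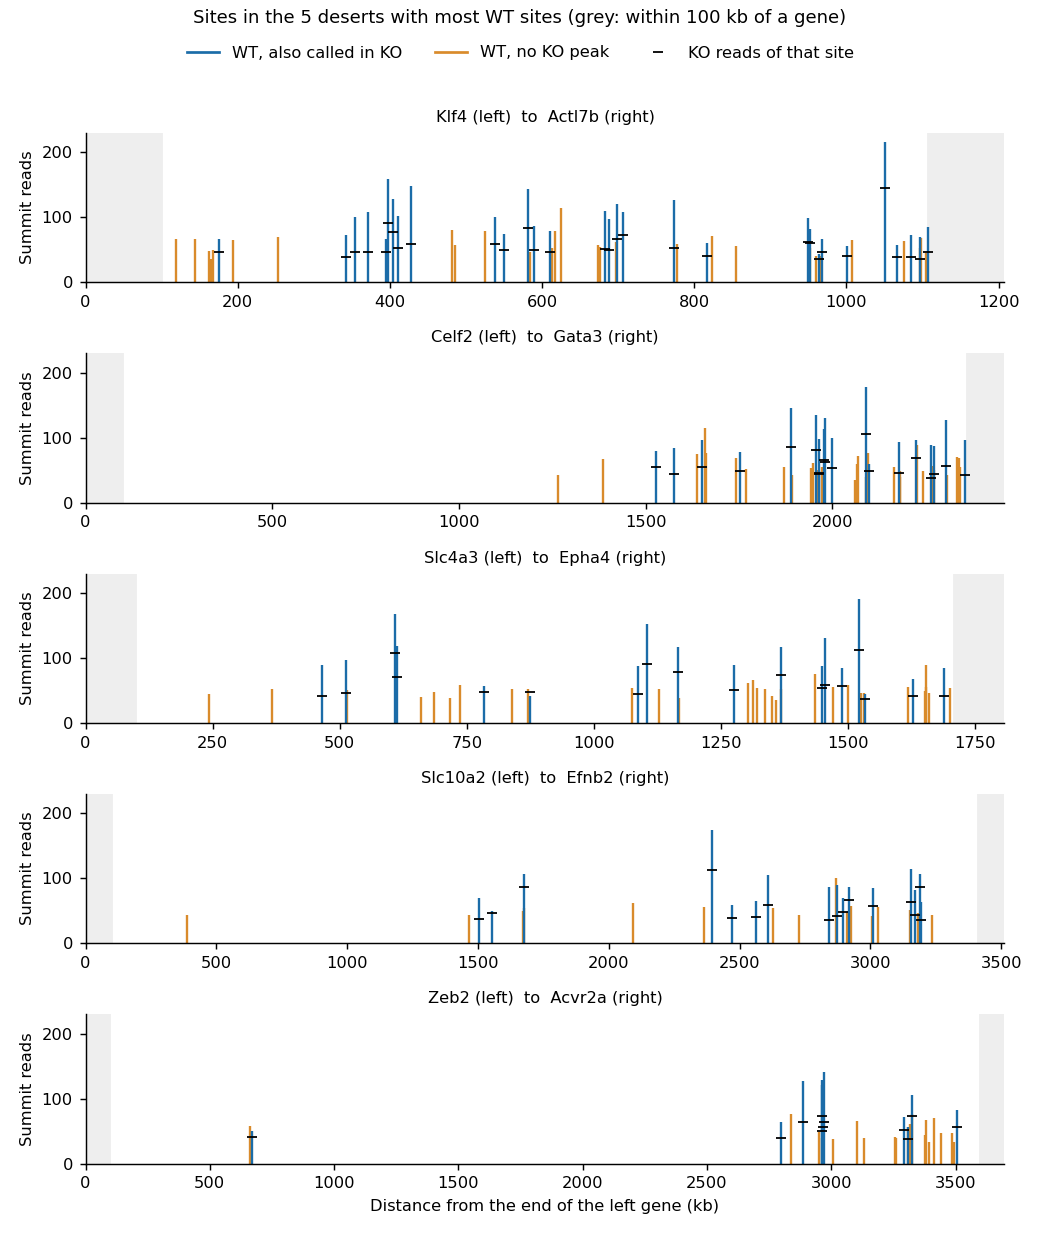
Recovered WT summit reads of each site (vertical lines) against distance in kb from the left gene, in the 5 deserts with most WT sites; blue sites were also called in KO, whose reads are the black ticks, orange ones were not, and grey bands are the stretches within 100 kb of a gene. Sites cover the Klf4-Actl7b desert from edge to edge, while those of Celf2-Gata3, Slc10a2-Efnb2 and Zeb2-Acvr2a crowd to the right.

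Transcription factors or their co-regulators stood beside several of the next 7. The Mpdz-Nfib desert (chr4:81542898-82190172), beside a factor of hair follicle stem cells, had 26 WT sites, 10 kept, up to 180 reads in WT and 97 in KO. Nmbr-Cited2 (chr10:14871459-17623227), beside a co-regulator of CBP and p300, had 25, 10 kept, of which 24 were nearer to Cited2. Gm11677-Sox9 (chr11:111826302-112682209), beside another factor of hair follicle stem cells, had 24, 12 kept, with 14 of the 24 nearer to Gm11677 and 10 nearer to Sox9. Klf14-Mkln1 (chr6:31058991-31298827), beside a relative of Klf4, had 23, 7 kept, in a stretch of 0.240 Mb. Of these, Klf14-Mkln1 had the highest density, 95.9 WT sites per Mb.

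The other 3 of the 12 differed in what flanked them. Agtr1b-Tbl1xr1 (chr3:20467178-21976252), an angiotensin receptor gene and a subunit gene of a corepressor complex, had 27 WT sites, 13 kept, of which 25 were nearer to Tbl1xr1. Plk2-Actbl2 (chr13:110500845-111155012), beside a Polo-like kinase gene, had 25, 12 kept. Jag1-Btbd3 (chr2:137216521-138156583) had 24, 14 kept, with 16 nearer to Jag1. Over the 12 deserts 172 of 394 sites were kept (43.7%), and each had fewer KO than WT sites.

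**Figure D5:**
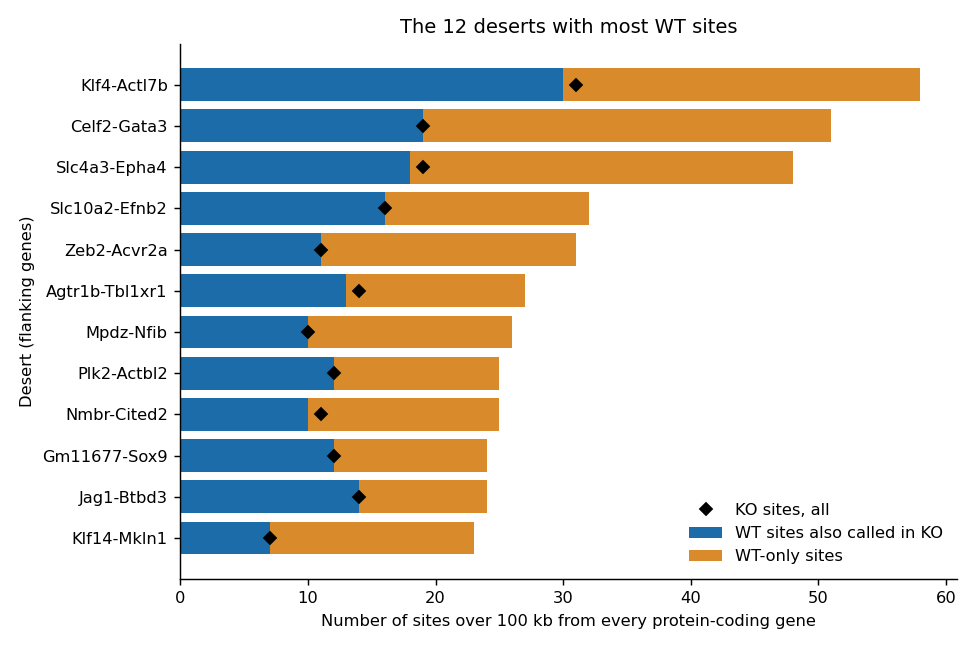
Number of WT sites also called in KO (blue), WT-only sites (orange) and all KO sites (diamonds) in the 12 deserts with most WT sites. WT sites ran from 58 in Klf4-Actl7b to 23 in Klf14-Mkln1, and KO sites from 31 to 7 in the same deserts.

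Ranked by sites per Mb, among deserts of at least 5 WT sites, short stretches led. Cebpb-Ptpn1 (chr2:167790433-167830749), beside a bZIP factor of keratinocyte differentiation, had 9 WT sites, 4 kept, at 223 per Mb. Gadd45a-Serbp1 (chr6:67137408-67166978), beside a DNA damage response gene, had 6, 2 kept, at 203 per Mb. Tmx1-Frmd6 (chr12:70567625-70725455) had 21, 10 kept, at 133 per Mb. Frmd6 encodes a FERM protein placed upstream of the Hippo kinases. Ets2-Psmg1 (chr16:95821050-95879932), beside an ETS factor, had 7, 4 kept, at 119 per Mb, and Slc38a2-Slc38a4 (chr15:96799729-96894815), between a pair of amino acid transporter genes, had 11, 6 kept, at 116 per Mb. These 5 stretches were 0.0296 to 0.158 Mb long, against 0.240 to 3.50 Mb for the 12 with most sites.

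Among the 72 deserts with at least 10 WT sites, the kept share ran from 10% at Cdkn2b-Dmrta1 (1 of 10) to 72.7% at Ahr-Agr3 (8 of 11). From the reads of their sites, 2.34 and 7.56 kept sites were expected in these 2 deserts. Set against the number so expected, 44 of the 72 deserts had more kept sites and 28 fewer. The difference had a standard deviation of 1.38 sites over the 72. The farthest above was Ttll7-Adgrl2, by 4.68 sites (10 kept of 15), and the farthest below Celf2-Gata3, with 3.57 fewer.

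Flanking genes were grouped by lists of gene names, which were chosen with earlier results of these data known. The shares below describe these lists and were not tested. The 72 deserts with at least 10 WT sites had 142 flanking genes, of which 23 (16.2%) were transcription factors of development. They were 72 of the 990 genes (7.27%) beside any desert with a WT site, 71 of the 1594 (4.45%) beside empty deserts only, and 1.75% of all protein-coding genes. Klf4, Gata3, Zeb2, Nfib, Sox9, Klf14, Klf5, Klf12 and Myc were among the 23. A desert counted for a gene whichever flank its sites were nearer to. All 51 sites of Celf2-Gata3 were nearer to Gata3, but only 2 of 31 in Zeb2-Acvr2a to Zeb2 and 24 of 58 in Klf4-Actl7b to Klf4. Between Klf5 and Klf12, factors of the same family, there were 22 WT sites, 11 kept, up to 135 reads in WT and 67 in KO (chr14:99630909-99633398). Both sides of Sox9 held sites, 24 towards Gm11677 and 14 towards Slc39a11.

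Genes of epidermis and hair follicle were 8 of the 142 flanks (5.63%), 18 of the 990 (1.82%) and 4 of the 1594 (0.251%), against 0.342% of all genes. All 8, namely Barx2, Gata3, Klf4, Klf5, Nfib, Prdm1, Runx1 and Sox9, also stand in the list of transcription factors. Deserts beside genes of this list held 20.2 WT sites per Mb, against 3.49 over all deserts. This was not particular to the list: density was 32.0 beside AP-1 and bZIP genes and 19.8 beside cytokine, chemokine and NF-kB genes. It was 8.6 beside the listed YAP, TEAD and Hippo genes, which leave out Frmd6, 8.0 beside transcription factors, 4.9 beside clock genes and 4.3 beside signalling genes. Among deserts with a WT site, density fell with length (Spearman rho −0.67). This is partly built in, since density divides by length and 176 of these 530 deserts held exactly 1 site. Tmem45b-Barx2, beside a homeobox factor of the hair follicle, had 19 WT sites, 9 kept. Prdm1-Prep, beside a repressor known from sebaceous gland and epidermal differentiation, had 12, 5 kept. In deserts beside epidermal and hair follicle genes 126 of 284 WT sites were kept (44.4%), where their reads gave an expected 44.5%.

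Signalling ligands, receptors and their antagonists were 4 of the 142 flanks (2.82%), namely Efnb2, Epha4, Fgfr2 and Jag1. They were 31 of the 990 (3.13%), 40 of the 1594 beside empty deserts (2.51%) and 0.994% of all protein-coding genes. Genes of AP-1 and its bZIP relatives were 2 of the 142 (1.41%), Jun and Maf, and 4 of the 990 (0.404%), against 1 of the 1594 (0.0627%) and 0.129% of all genes. The YAP and TEAD target and Hippo list gave 1 of the 142 (0.704%), Lpp, and 8 of the 990 (0.808%), among them Thbs1, Crim1, Edn1 and Rbms3, against 5 of the 1594 (0.314%) and 0.203% of all genes. This list of 44 genes is not complete. It leaves out Frmd6, which flanks a desert of 21 WT sites. Cytokine, chemokine and NF-kB genes were 0 of the 142, 6 of the 990 (0.606%), 3 of the 1594 (0.188%) and 0.250% of all genes. Clock genes were 2 of the 990 (0.202%) and 2 of the 1594 (0.125%), near their share of all genes, 0.129%. Most of these counts are small.

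Neuronal adhesion, synapse and channel genes were 2 of the 142 flanks (1.41%), near their share of all genes, 1.34%. The 2, Adgrl2 and Adgrl4, flank the same desert. The list goes by gene name, and whether each member is neuronal was not checked. Genes of this list were 40 of the 990 (4.04%) and 93 of the 1594 beside empty deserts only (5.83%), and deserts beside them held 0.755 WT sites per Mb. Olfactory and vomeronasal receptor genes were 0 of the 990 and 28 of the 1594 (1.76%), against 6.85% of all genes.

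Of the 4 longest empty deserts, 3 lay beside genes of the neuronal list. Between Celf4 and Pik3c3 no WT or KO site was found in 4.31 Mb, and between Olfm4 and Pcdh17, a protocadherin, none in 4.22 Mb. Cntnap5b-Cdh20 (4.08 Mb) and Tenm3-Aga (3.79 Mb), with genes of neuronal adhesion, were also empty. Of the 204 deserts over 1 Mb, 123 held no WT site and 18 held at least 10. These deserts, the lncRNAs and miRNAs below, the promoters above and the deserts beyond the first 12 were chosen after their values were seen.

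Chromosomes differed in their desert sites. Chromosome 13 had most, 280, or 16.5% of its WT peaks, at 8.25 per Mb of desert. Chromosome 19 had 29 (2.31% of its peaks), at 2.75 per Mb. X had 44, at 0.792 per Mb, but these were 9.44% of its WT peaks, which numbered only 466. Over all chromosomes the values were 6.80% and 3.49 per Mb. On chromosome 13 122 of the 280 were kept (43.6%, where their reads gave an expected 37.5%). On X 15 of the 44 were kept (34.1%, expected 27.3%).

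Many desert sites lay within genes that code for no protein. The summits of 570 WT sites (22.9%, 21.3 to 24.6) fell inside the span of a non-coding gene, while such spans cover 12.1% of the desert length. The length was not matched for distance from protein-coding genes, with which site density fell. lncRNA genes held 558 of them. The kept share was 41.4% inside these spans and 41.2% outside. Gm13481, in Zeb2-Acvr2a, held 18 WT sites, 7 kept, up to 141 reads. Gm13219, in Celf2-Gata3, held 12, 6 kept, and Gm32543, in Nmbr-Cited2, 12, 4 kept. Gm34061, between Klf5 and Klf12, held 11, 7 kept. Lncpint, a lncRNA induced by p53, in Klf14-Mkln1, held 9, 4 kept. Gm12610, in Cdkn2b-Dmrta1, also held 9, with 1 kept. Genes that hold most sites tend by that choice to lie in deserts with many.

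Of 118 miRNA genes in deserts, 10 had a WT summit within 5 kb (8.47%, 4.14 to 15.03), against 309 of 1110 elsewhere (27.8%), where peaks are denser. The 10 shared 7 peaks, 5 of them kept. Mature sequences of 8, from RefSeq (GRCm38.p6), are shown with the seed (bases 2 to 8) in capitals, because several belong to known pairs of the same seed: 29a with 29b, and 221 with 222.
miR-205-5p: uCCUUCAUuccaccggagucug
miR-29a-3p: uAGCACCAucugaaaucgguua
miR-29b-3p: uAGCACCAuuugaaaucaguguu
let-7c-5p: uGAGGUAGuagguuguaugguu
miR-99a-5p: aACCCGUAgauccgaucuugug
miR-125b-5p: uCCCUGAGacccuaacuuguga
miR-221-3p: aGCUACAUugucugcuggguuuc
miR-222-3p: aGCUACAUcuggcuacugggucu

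Mir205, a miRNA abundant in skin epithelium, had the highest of these peaks, 930 bp away (chr1:193508111-193508919), with 166 reads in WT and 82 in KO. Its desert, Camk1g-Plxna2, held 23 WT sites, 14 kept, and 14 of the 23 lay within 50 kb, starting 138 kb from Camk1g. Another of them (chr1:193550187-193551299), had 195 and 124 reads. The promoter of Mir205hg, the host gene of this miRNA, had a peak of 71 reads in WT and no KO peak. The 50 kb with these 14 sites began 930 bp to 1 side of Mir205, and was the densest 50 kb among the 40 deserts with most WT sites.

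The other miRNA sites were lower. Mir125b-2 had a peak of 113 reads in WT and 73 in KO at 2617 bp (chr16:77643066-77644902). Mirlet7c-1 and Mir99a, in the same desert between Usp25 and Cxadr, shared a WT-only peak of 36 reads (chr16:77599469-77600103). Mir29a and Mir29b-1, in Klf14-Mkln1, shared a WT-only peak of 32 reads (chr6:31061837-31062171). Mir221 and Mir222 on X shared a kept peak of 78 and 56 reads (chrX:19150513-19151211). Both WT-only peaks stood near the lowest reads of the WT list, and the kept ones above them.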

How the data were processed

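The labels describe 4 samples; the 2 YAP precipitates each have 1 deposited 10-column peak list on mm10, with no input file used here. Per the submitters' processing notes, MACS2 2.1.1, SAMtools 1.5 and Trimmomatic 0.36 were used, in roles they do not state; aligner, control, filters and what was pooled: not given in the sources used here. For each peak the authors deposited a score (10 times the −log10 q, truncated), a fold, which is the ratio of summit signal to background, and −log10 p and −log10 q values. These are the authors' values.

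Fold and −log10 p were solved for the whole number of summit reads, after a search for the scaling of each list (0.694 for WT, 0.842 for KO). In both lists 100% of peaks gave a whole number to within 0.002 of the −log10 p, against 0.80% and 0.37% with the scaling 3% off. The step was tested on simulated lists. Even background was 9.63 reads in both. A kept site was paired with the overlapping KO peak of most reads.

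Gene spans came from RefSeq, assembly GRCm38.p6 (21631 protein-coding genes; 108 of them starting below 3 Mb lay on other scaffolds and were left out). A desert is a stretch between neighbouring spans, or between the chromosome start and the first span, of which a part lies over 100 kb from both. Intervals are exact 95% Clopper-Pearson intervals. Numbers expected from reads use the kept share of WT peaks outside deserts in 10 read ranges. Since each genotype has 1 pool, nothing was tested and no p-values are given. Motifs at the summits were not searched, for lack of a genome. Named by rule were the 12 deserts with most WT sites, the 5 with most per Mb among those of at least 5, the 10 highest sites (of which 1 is not reported here), the 6 highest WT-only, the 4 farthest, the 3 highest and 3 lowest ratios, the highest site of each of the first 5 deserts, and the 4 highest KO-only sites. Members and lists were chosen with earlier results of these data known. Python 3.11.15, pandas 2.3.3 and scipy 1.17.1 were used.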

Additional observations from a re-analysis of the deposited data

How the results depend on the processing

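Of 33 alternative values of the main results, 14 stayed close to the main value, that is inside its 95% interval for shares and medians or within 1.5 times for counts, and 19 did not. The share of WT desert sites kept, 41.3%, was 36.8% with 50% reciprocal overlap, 79.4% with the WT list trimmed by score to as many peaks as KO and 38.8% with spans of every gene, coding or not. The share of KO desert sites shared with WT, 99.1%, was 87.3% when peaks had to overlap reciprocally, 95.5% when summits had to lie within 200 bp and 80.5% with the trimmed WT list. The share of peaks in deserts was 7.29% (WT) and 6.13% (KO) at a fold of at least 8, 6.59% (KO) at 80 reads or more, 11.8% and 12.6% beyond 50 kb, 2.95% and 3.09% beyond 200 kb, and 0.746% and 0.726% with every gene; KO, above WT in the main values, was below it at both limits of height and with every gene. The median log2 ratio of KO to WT was −0.83 at 150 WT reads or more, −0.83 with no background subtracted and −0.94 beyond 200 kb, below 0 throughout. With every gene, the desert with most sites held 15 and was Mir6343-Gm2060. With peaks within 1 kb merged, only sites of at least 60 reads, or a distance of 50 kb, Klf4-Actl7b remained first and Celf2-Gata3 second, and 11, 10 and 8 of the 12 deserts remained among the 12 with most. Of 30 named sites, 1, the site beside Bmp2, was no longer kept with reciprocal overlap. No paired analysis was possible because there is 1 list per genotype. With 1 pool per genotype, differences between genotypes and between pools cannot be told apart. The lowest called peaks had 28 (WT) and 29 reads (KO), so a WT-only site is one not detected in KO at this depth.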
